A study of Rattus norvegicus with 20 samples.

Results

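The comparison is that of water-loaded with control cortical collecting ducts after 1 day, taken from the sample titles, which gives 6 of the 20 libraries of the series. All 6 rats were male Sprague-Dawley rats, 5 weeks old, and carried a subcutaneous minipump that released DDAVP, a vasopressin analogue selective for the V2 receptor, at 5 ng per hour. The 3 control rats received 25 mL of water a day in gelled food and the 3 water-loaded rats 50 mL, so the controls were under the drug as well. Cortical collecting ducts were microdissected from each rat, lysed, and amplified by a protocol written for single cells; one protocol text speaks of dissection after 4 days of water load, and the day is used here as the titles and the series design give it. The number of tubules behind a library is not given in the sources used here. In such bulk samples, fewer cells of a type and less RNA per cell cannot be told apart.

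The principal cells of this segment carry the water response. Vasopressin binds the receptor Avpr2, raises cyclic AMP, and brings the water channel Aqp2 to the luminal membrane and its transcript to a higher level, while Aqp3 and Aqp4 let the water leave through the basolateral membrane. When water intake stays high despite the hormone, the kidney begins to excrete water again, a state called vasopressin escape in which Aqp2 is known to decline. Intercalated cells, the other cell type of the duct, move acid and base through the vacuolar proton pump.

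Day 1 libraries held between 44480814 and 60678591 reads on genes. Control 1 and water-loaded 2 stood apart from the other 4 day 1 libraries. In them 7853 and 8116 of the genes tested reached 1 CPM, against 9799 to 10469 in the others. CPM is the count scaled to a library of common size, here with the factors named next. The scaling factors of control 1 and water-loaded 2 from edgeR's trimmed mean of M-values (TMM), which corrects for a few genes taking many reads, were 0.645 and 0.686, against 0.949 to 1.09. A TMM factor below 1 raises the CPM of every gene in that library. Values are TMM-normalised CPM unless the scale of total counts is named.

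All 6 libraries carried duct markers, and the markers of several other cell types were highest by far in control 1 or in water-loaded 2. The 14 principal cell markers summed to 30160 to 43834 CPM in the controls and to 17571, 31148 and 21146 CPM in water-loaded 1, 2 and 3, and the 9 markers shared by intercalated cells to 8544 to 12945 CPM over all 6. Proximal tubule markers summed to 9885 CPM in water-loaded 2, against 87.1 to 1044 CPM in the other day 1 libraries and 62.5 to 3201 CPM in the 14 libraries of days 2 and 4. Slc5a2, the glucose carrier of the early proximal tubule, stood at 157 CPM in water-loaded 2 and at 0 counts in all 3 controls. Fibroblast, pericyte and smooth muscle markers summed to 3133 CPM in control 1 and to 37.3 to 112 CPM in the other day 1 libraries. Eln, the gene of elastin, stood at 2559 CPM in control 1 and at most at 6.14 CPM elsewhere at day 1. Podocyte and endothelial markers were also highest in control 1, at 356 and 1281 CPM. Only 2 of the 6 podocyte markers listed were tested, and that sum is over these 2. Other lists went another way: endothelial markers were lowest in water-loaded 2 (33.8 CPM) and immune cell markers lowest in control 1 (114 CPM). Loop of Henle and distal tubule markers summed to 13079 CPM in water-loaded 2, 6502 CPM in control 3, 2539 CPM in water-loaded 1 and 395 CPM, the lowest, in control 1.

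**Figure D1:**
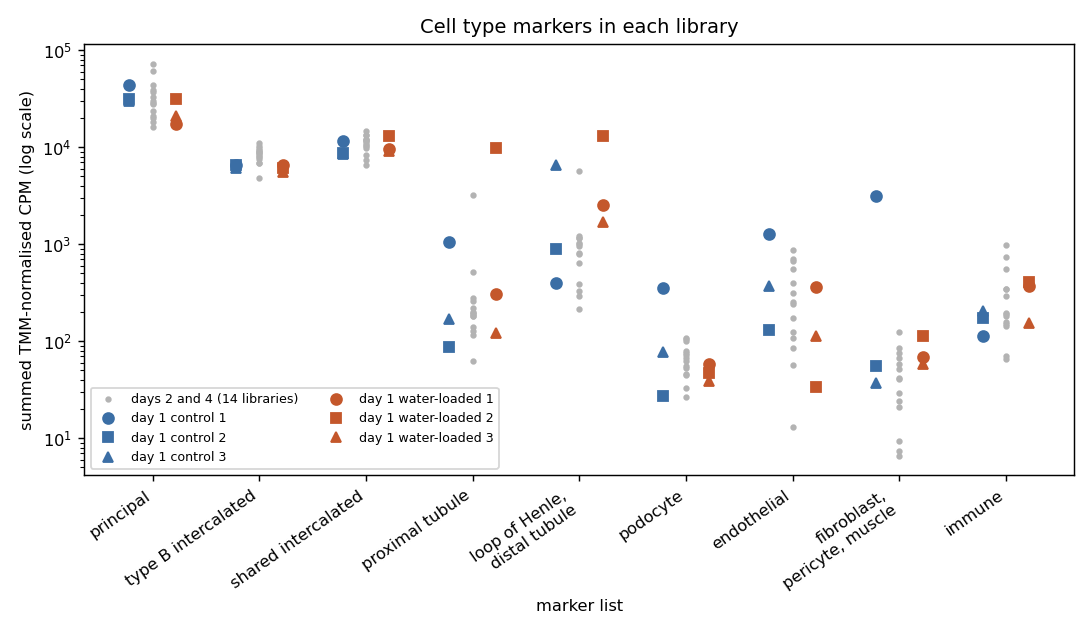
Summed TMM-normalised CPM of 9 marker lists (log axis) in each library, with the 6 day 1 libraries in colour and the 14 libraries of days 2 and 4 as grey points. Water-loaded 2 (orange square) stands at 9885 CPM for proximal tubule markers and control 1 (blue circle) at 3133 CPM for fibroblast, pericyte and smooth muscle markers.

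No gene passed edgeR's test at day 1. Of 14472 genes tested by edgeR's quasi-likelihood test, 0 (0%) had an adjusted p under 0.05, and the smallest adjusted p was 0.164. Without adjustment 2254 genes (15.6%) had p under 0.05, of which 1244 (8.6%) were higher and 1010 (6.98%) lower in water-loaded ducts. In 827 genes (5.71%) all 3 water-loaded libraries lay above all 3 controls, and in 748 (5.17%) all lay below. DESeq2 called 1126 genes (7.78%), and 673 of these had at least 2 day 1 libraries at or under the floor of 3 counts, which is 59.8% against 28.8% of all genes tested. limma-voom called 2 (0.0138%). Because no gene passed in edgeR's test, the values that follow are differences between these libraries that did not hold after that test's adjustment over all genes. DESeq2's adjusted p was under 0.05 for some of the genes named, such as Dgcr6 (0.00255) and Atg4d (0.00786). It was 0.338 for Aqp2 and 0.165 for Aqp3.

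The spread at day 1 set what could be seen. For genes of 10 to 100 CPM the median SD of log2 CPM within a group was 1.40 in day 1 controls and 1.12 in day 1 water-loaded ducts, against 0.39 to 0.76 in the 4 groups of days 2 and 4. The median standard error of the day 1 log2 difference was 0.82 at 10 to 100 CPM, 0.42 at 100 to 1000 CPM and 0.34 from 1000 CPM upward. Differences of abundant genes were therefore the most precise.

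The 2 libraries that stood apart weighed on most of the differences. Among 7642 genes with a day 1 mean of at least 10 CPM, the highest value lay in control 1 for 2839 genes and in water-loaded 2 for 2369, together 68.2%. Among the 1049 of them with an unadjusted p under 0.05 (13.7%), the share was 91.4%: 591 of the 631 lower genes peaked in control 1, and 368 of the 418 higher genes in water-loaded 2. The lowest value lay in either of the 2 for 54.5% of the 7642 genes and 62.5% of the 1049. Control 1 was lowest in 288 of the 418 higher genes, and water-loaded 2 in 365 of the 631 lower genes. On total counts the highest value lay in either for 48.0% of all and 79.3% of 743 genes, and the lowest for 68.0% and 66.5%. With both libraries left out, 1113 genes had an unadjusted p under 0.05, and 770 of the first 2254 were among them with the same sign. That fit has only 2 libraries per group. Smaller groups alone can raise p, and their part in the loss was not tested. Of the 2254, 47.2% were kept in this way without control 1 alone and 60.2% without water-loaded 2 alone. Without any other single day 1 library the share was 69.3% to 71.7%.

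**Figure D2:**
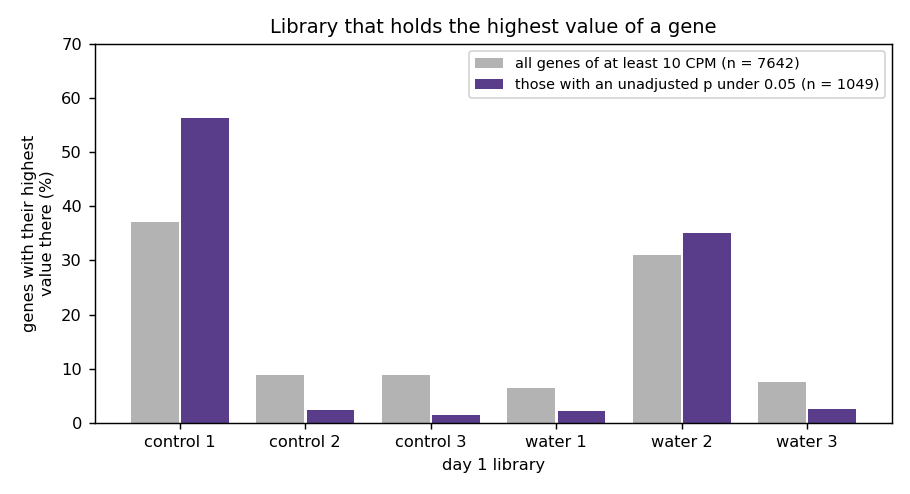
Share of genes (%) whose highest TMM-normalised value lies in each day 1 library, for all 7642 genes of at least 10 CPM (grey) and for the 1049 with an unadjusted p under 0.05 (purple). Control 1 and water-loaded 2 hold 68.2% of the former and 91.4% of the latter.

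Aqp2 (ENSRNOG00000054378), the regulated water channel, had lower means in water-loaded ducts. Its controls 1 to 3 stood at 30163, 19032 and 18083 CPM and its water-loaded libraries at 9959, 18334 and 12528 CPM. The groups overlapped, since water-loaded 2 lay above control 3, and the log2 difference was −0.72 (SE 0.33), with edgeR's unadjusted p of 0.0441 and adjusted p of 0.311. It was −0.45 without control 1 and −0.99 without water-loaded 2. Without both libraries it was −0.73, with edgeR's unadjusted p of 0.0674.

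Scaled by total counts, a setting added after the data had been seen, the same gene gave a tight pair of groups. The controls then stood at 19405, 18055 and 18135 CPM and the water-loaded libraries at 10892, 12573 and 12924 CPM, with no overlap. The standard deviation was 4.09% of the mean in controls and 8.95% in water-loaded ducts, against 29.9% and 31.5% with TMM. The log2 difference was −0.61. edgeR's unadjusted p was 0.0243, against 0.0441 with TMM, but its adjusted p of 0.329 was no smaller. An exact two-sided permutation test over the 6 libraries gave p = 0.1 on total counts and p = 0.2 with TMM, and 3 against 3 cannot go below 0.1.

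Aqp3 (ENSRNOG00000009797), the basolateral water channel, also had lower values. Its controls held 1448, 2638 and 2063 CPM and its water-loaded libraries 739, 1396 and 882 CPM. Each control exceeded each water-loaded library, by little between control 1 and water-loaded 2. The log2 difference was −1.03 (SE 0.38), with edgeR's adjusted p of 0.249, and it ranged from −1.34 to −0.80 with any 1 day 1 library left out. On total counts control 1 stood at 931 CPM, below the 957 CPM of water-loaded 2, and the exact permutation p was 0.1 with TMM and 0.2 on total counts. Without both libraries that stood apart the difference was −1.54.

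Avpr1a (ENSRNOG00000004400), the V1a vasopressin receptor, was lower with or without any 1 library. Its controls held 232, 177 and 180 CPM and its water-loaded libraries 131, 70.9 and 91.0 CPM. The groups did not overlap on either scale, and the log2 difference was −1.01 (SE 0.31; −1.28 to −0.82 with 1 library left out). edgeR gave an unadjusted p of 0.00397 and an adjusted p of 0.225, whereas DESeq2 gave an adjusted p of 0.0338 (0.0338 to 0.9995 over the alternatives). With both libraries that stood apart left out the difference was −0.68 and its unadjusted p 0.0562.

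Avpr2, the V2 receptor on which DDAVP acts, did not share this direction. Its means were 574 ± 167 CPM in controls and 644 ± 109 CPM in water-loaded ducts (SD, n = 3), a log2 difference of 0.16 (SE 0.33). On total counts its groups were 476 ± 29.0 and 587 ± 52.7 CPM and no longer overlapped, with water-loaded ducts the higher. Aqp4, the other basolateral water channel, differed by −0.41 (SE 0.44), and by 0.21 without control 3. The 3 subunits of the epithelial sodium channel, which takes up sodium under aldosterone, gave −0.22 (SE 0.28) for Scnn1a, 0.06 (SE 0.28) for Scnn1b and 0.00 (SE 0.25) for Scnn1g.

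Per transcript length, in the authors' deposited FPKM, Aqp2 stood at 4935 ± 202 in controls and 3230 ± 289 in water-loaded ducts (SD, n = 3). Aqp3 stood at 1026 ± 454 and 499 ± 42.6 FPKM, Avpr2 at 394 ± 24.0 and 486 ± 43.6 FPKM, and Avpr1a at 94.9 ± 9.06 and 54.6 ± 27.2 FPKM. Aqp2 was thus the most abundant of these 4 transcripts per length in both groups, and Avpr1a the least.

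**Figure D3:**
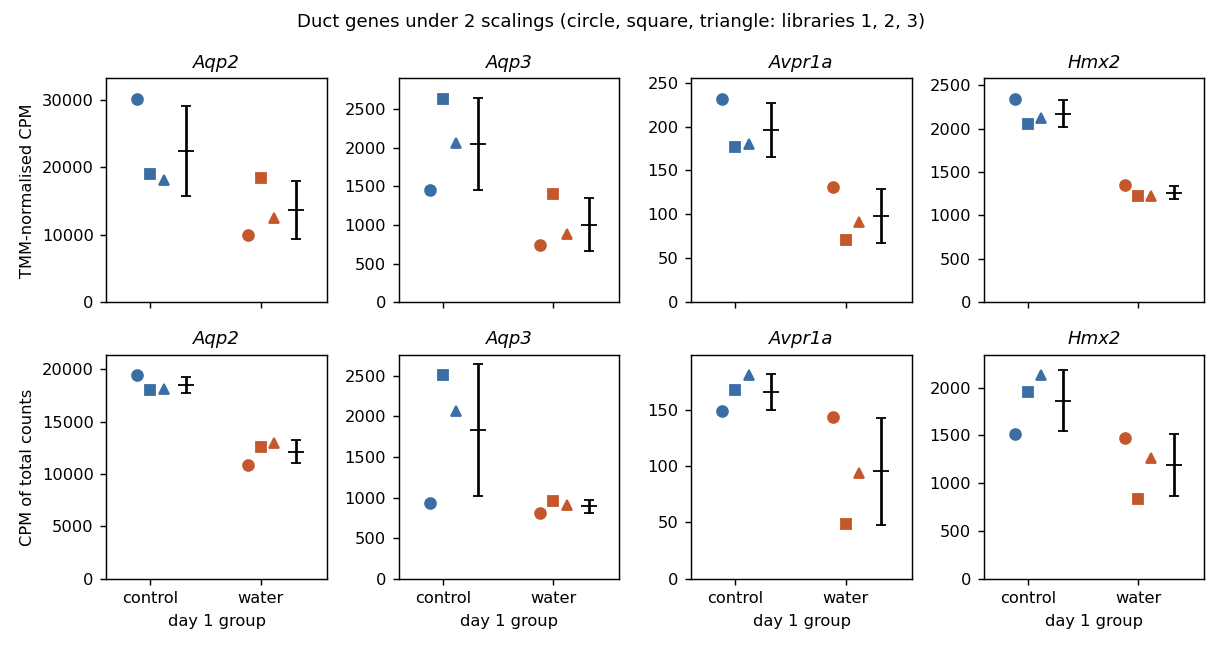
TMM-normalised CPM (upper row) and CPM of total counts (lower row) of Aqp2, Aqp3, Avpr1a and Hmx2 in the 6 day 1 libraries, with the mean and SD of each group of 3 in black. Aqp2 overlaps between groups with TMM and not on total counts, Aqp3 the reverse, and Avpr1a and Hmx2 overlap on neither scale.

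The upstream sequences of these 3 genes are shown because vasopressin acts on transcription in this cell through cyclic AMP, and a cyclic AMP response element can be read from the letters. Each run is the 250 bases before the annotated start, from RefSeq on GRCr8 (the reads were aligned to rn6), 5′ to 3′ on the gene's strand, and capitals mark the half-site TGACG or its other strand CGTCA. Half-sites occurred in 18.2% of 33469 upstream windows of that length, and the full element TGACGTCA, which contains both, in 1.59%. Aqp2 lies at chr7:132590036-132590285 (plus strand), Aqp3 at chr5:61040684-61040933 (minus strand) and Avpr1a at chr7:59999493-59999742 (plus strand). Aqp2 held 1 half-site, 226 bases before the start, and Avpr1a 1, 240 bases before it, and no half-site letters were found in the Aqp3 window.
Aqp2: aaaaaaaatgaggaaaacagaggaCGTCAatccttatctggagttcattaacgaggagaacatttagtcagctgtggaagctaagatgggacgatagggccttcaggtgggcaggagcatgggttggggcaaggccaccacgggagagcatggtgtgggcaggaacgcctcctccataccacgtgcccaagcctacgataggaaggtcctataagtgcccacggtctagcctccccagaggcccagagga
Aqp3: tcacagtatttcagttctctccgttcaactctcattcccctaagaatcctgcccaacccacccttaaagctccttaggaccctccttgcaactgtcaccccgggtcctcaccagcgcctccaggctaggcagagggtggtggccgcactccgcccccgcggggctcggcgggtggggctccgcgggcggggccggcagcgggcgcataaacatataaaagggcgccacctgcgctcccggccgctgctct
Avpr1a: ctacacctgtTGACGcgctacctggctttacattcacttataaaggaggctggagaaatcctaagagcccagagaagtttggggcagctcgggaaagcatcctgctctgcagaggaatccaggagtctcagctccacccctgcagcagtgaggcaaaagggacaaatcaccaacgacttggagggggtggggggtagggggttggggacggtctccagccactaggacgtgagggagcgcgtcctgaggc

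Over the pathway, 19 of 28 tested genes of vasopressin signalling and water transport were lower (67.9%, against 48.9% of all genes) and 9 higher, with a median log2 difference of −0.41 against 0.00 over all genes. The median was −0.21 without control 1, −0.098 without control 3 and −0.57 without water-loaded 2. At an unadjusted p under 0.05 stood 4 lower members, Avpr1a, Aqp3, Aqp2 and Adcy3 (14.3%, against 6.98% of all genes), and 3 higher ones, Arrb1, Akap7 and Myo5b (10.7%, against 8.6%). Myo5b, a motor that carries vesicles, held 0.801, 26.8 and 32.7 CPM in controls and 24.7, 161 and 51.2 CPM in water-loaded ducts, and its difference of 1.98 came down to 0.34 without both libraries. Adcy3, an adenylyl cyclase, held 58.7, 4.27 and 9.38 CPM in controls and was at 0 counts in water-loaded 1 and 2 and at 1.39 CPM in water-loaded 3.

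Principal cell markers were lower in 10 of 14, with a median of −0.37 (−0.71 without water-loaded 2), and in 12 of 14 with both libraries left out (median −0.63). Npnt, which codes for the matrix protein nephronectin, held 142, 111 and 132 CPM in controls and 56.7, 31.6 and 63.9 CPM in water-loaded ducts, without overlap (log2 difference −1.34, SE 0.52, edgeR's adjusted p 0.260). Markers shared by intercalated cells were higher in 6 of 9 (median 0.32), and 4 of the 9 were higher without overlap (44.4%, against 5.71% of all genes): Foxi1, the factor that sets intercalated cell identity, Tfcp2l1, another factor of the duct, and the proton pump subunits Atp6v0d2 and Atp6v1b1. Foxi1 held 330, 333 and 285 CPM in controls and 417, 680 and 384 CPM in water-loaded ducts, a log2 difference of 0.64 (SE 0.29, edgeR's adjusted p 0.297). Atp6v1b1 held 1533, 1515 and 1556 CPM against 2084, 2618 and 1995 CPM, a difference of 0.54 (SE 0.27). The adjusted p of all 4 was 0.297 or more. Without control 1 and water-loaded 2 the median of this list was 0.37, with 7 of 9 higher. In its sum, however, control 1 (11557 CPM) lay above water-loaded 1 (9649 CPM) and water-loaded 3 (9160 CPM). Of 5 type A intercalated cell markers 4 were higher (median 0.14), but only 2 were without both libraries (median −0.15).

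Hmx2 (ENSRNOG00000020638), a homeobox transcription factor counted here among type B intercalated cell markers, had close replicates with TMM (SD 7.06% of the mean in controls and 5.83% in water-loaded ducts). Its controls held 2346, 2054 and 2120 CPM and its water-loaded libraries 1349, 1219 and 1224 CPM. The log2 difference was −0.78 (SE 0.22), between −0.83 and −0.72 with any 1 library left out, with edgeR's adjusted p of 0.196 and DESeq2's of 0.0293 (0.0293 to 0.9995 over the alternatives). On total counts the SD was 17.1% and 27.3% of the mean, the difference −0.64, and the groups still did not overlap, the nearest libraries being control 1 (1510 CPM) and water-loaded 1 (1476 CPM). Of the 5 type B markers Hmx2 was the 1 lower member: the other 4 lay between 0.00 and 5.53, with Slc26a4, the anion exchanger pendrin, at 0.36 (SE 0.24), and the median of the list was 0.16 (−0.080 without water-loaded 1). At days 2 and 4, in other rats with their own controls, Hmx2 differed by −0.97 and −0.998. On those days 0 genes passed edgeR's test, and 757 (5.23%) and 1045 (7.22%) had an unadjusted p under 0.05. DESeq2 called 77 (0.532%) and 319 (2.2%) genes there, and limma-voom 20 (0.138%) and 0.

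Among genes of at least 100 CPM the lower side was the larger. Of 2136 such genes, 60.1% were lower at day 1 (53.0% on total counts). At an unadjusted p under 0.05 with no overlap stood 103 lower (4.82%) and 30 higher (1.4%). With control 1 and water-loaded 2 left out, 25 lower (1.17%) and 4 higher (0.187%) of these still had p under 0.05. On total counts all 29 kept their sign and an unadjusted p under 0.05, and 26 of them still had no overlap. Of the 25, 21 were lower at day 2 as well (84%) and 23 at day 4 (92%), beside 63.5% and 70.1% of the 1284 lower genes of that abundance. Of the 4 higher genes, 3 were higher at day 2 and 2 at day 4.

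The lower genes of this set covered several functions, and Lmo4, Auh and Col18a1 were chosen after their values were seen. Lmo4, a transcriptional cofactor, held 90.5, 133 and 204 CPM in controls and 41.1, 69.7 and 65.3 CPM in water-loaded ducts, a log2 difference of −1.28 (SE 0.42) beside −1.62 at day 2 and −0.82 at day 4. Its groups did not overlap on this scale, although they did on total counts, and control 1 was the lowest control. Auh, an enzyme of leucine breakdown, held 456, 463 and 532 CPM against 253, 204 and 253 CPM (−1.03, and −0.49 and −1.14 later). Col18a1, a basement membrane collagen, held 1617, 1356 and 1136 CPM against 676, 871 and 779 CPM (−0.82, and −0.41 and −0.65 later). In all 3 genes the lowest control lay above the highest water-loaded library, which is the condition that chose the set.

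Of the 29 genes of the set, 18 were at their highest in control 1, among them Col18a1 and several other lower genes. Hoxd8, a homeobox factor, held 423, 267 and 279 CPM in controls and 135, 144 and 109 CPM in water-loaded ducts (log2 difference −1.32, SE 0.35). Atg4d, a protease of autophagy, held 623, 317 and 307 CPM against 157, 121 and 197 CPM (−1.40, and −0.83 without both libraries). Mri1, an enzyme of methionine salvage, held 379, 158 and 134 CPM against 44.1, 49.5 and 67.4 CPM, and at day 2 its difference was 0.48, opposite to the −2.06 of day 1. Dgcr6 and Gnl1, a GTP-binding protein, went from −1.91 and −1.58 with all libraries to −1.19 and −0.78 without both, and Klhl21, a ubiquitin ligase adaptor, from −1.54 to −0.84. Lztr1, another such adaptor, was named by the rule for abundant genes but had an unadjusted p of 0.128 without both libraries (−1.82 to −0.75).

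**Figure D4:**
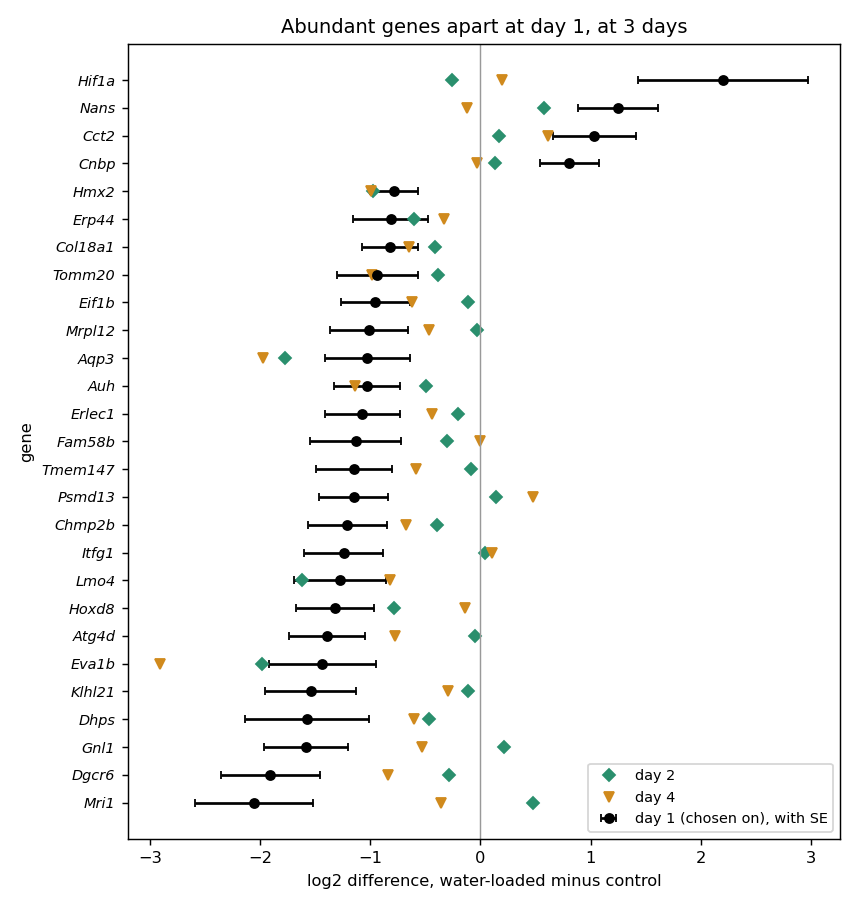
Log2 difference (water-loaded minus control) of 27 of the 29 genes of at least 100 CPM that were apart at day 1 with and without control 1 and water-loaded 2, at day 1 (black, bars are SE; the genes were chosen on these values), day 2 (green) and day 4 (orange). Over all 25 lower genes of the set, 21 were also lower at day 2 and 23 at day 4.

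The 4 higher genes of the set were Nans, Cnbp, Cct2 and Hif1a. Cnbp, a zinc finger protein that binds nucleic acids, held 295, 236 and 299 CPM in controls and 438, 543 and 471 CPM in water-loaded ducts, without overlap (log2 difference 0.81, SE 0.27), but the difference was 0.13 at day 2 and −0.03 at day 4. Hif1a, the oxygen-regulated factor, held 2.04, 85.4 and 65.5 CPM against 125, 309 and 270 CPM, a difference of 2.20 (SE 0.77) that was 1.38 without both libraries, −0.26 at day 2 and 0.19 at day 4. Nans, which makes sialic acid, held 69.2, 62.4 and 83.3 CPM against 104, 189 and 217 CPM. Of the other abundant higher genes, L1cam, an adhesion molecule, held 147, 177 and 220 CPM against 306, 521 and 371 CPM (1.14, and 0.76 without both libraries). Fcgrt, the receptor that recycles antibodies, Stx18, a membrane fusion protein, and Fam21c, of an endosomal complex, went from 1.98, 1.17 and 1.24 to 0.54, 0.36 and 0.69 without both. Outside this set, Tuba4a, an alpha tubulin, was the named higher gene with like values at all 3 days: 54.9, 128 and 97.0 CPM in controls and 159, 248 and 169 CPM in water-loaded ducts, and log2 differences of 1.04, 1.01 and 1.21 at days 1, 2 and 4. On total counts its controls lay at 84.8 ± 44.6 CPM and its water-loaded libraries at 173 ± 2.36 CPM (SD, n = 3). The SD of controls was 52.6% of the mean on that scale, against 39.5% with TMM. Without both libraries its day 1 difference was 0.54, with edgeR's unadjusted p of 0.16.

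A stricter rule asked for no overlap and an unadjusted p under 0.05 with all libraries and without each of the 6. Of all genes tested 364 (2.52%) met it, and of the 7642 genes of at least 10 CPM 149 did (1.95%), 70 higher (0.916%) and 79 lower (1.03%). It did not remove the weight of single libraries, since 73 of the 79 lower genes were highest in control 1 and 53 of the 70 higher genes in water-loaded 2. With both left out together, 52 of the 70 and 51 of the 79 kept an unadjusted p under 0.05.

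The smallest p among higher genes of that rule belonged to genes near 0 in controls. Galnt10, an enzyme that starts O-linked sugar chains, held 0, 0.0550 and 0.0164 CPM in controls and 6.62, 46.4 and 20.4 CPM in water-loaded ducts, and its edgeR adjusted p was 0.164. Mlph, which links vesicles to a myosin motor, held at most 0.246 CPM in controls and 14.5, 79.6 and 3.66 CPM in water-loaded ducts. Lpxn, an adaptor of focal adhesions, had no count in controls and 0.0184, 47.7 and 20.3 CPM in water-loaded ducts, at least 364-fold higher by the mean against a floor of 3 counts per library. Tchp, Nmrk1, Fam151a and Epc1 were also near 0 in controls, each at most at 0.733 CPM. At days 2 and 4 the differences were 1.78 and −0.37 for Galnt10, 0.75 and −0.22 for Mlph, and −0.63 and −0.29 for Lpxn.

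Nop56 and Myo18a were above 10 CPM in every control. Nop56, a protein of the particles that modify ribosomal RNA, held 12.5, 27.8 and 36.8 CPM in controls and 77.5, 292 and 105 CPM in water-loaded ducts, a log2 difference of 2.62 (SE 0.55; 1.49 without both libraries). Myo18a, an unconventional myosin, held 41.7, 21.2 and 11.8 CPM against 81.1, 185 and 54.7 CPM, a difference of 2.10 (SE 0.48; 2.04 without both). Pex3, needed to build peroxisomes, held 0.111, 3.13 and 5.57 CPM against 29.1, 57.3 and 37.8 CPM. Of ribosome biogenesis, Polr1b, a subunit of RNA polymerase I, also met the rule without overlap, with at most 0.871 CPM in controls and 10.1, 15.9 and 15.9 CPM in water-loaded ducts. The edgeR adjusted p of Nop56, Myo18a and Pex3 was 0.164 each, and at day 2 the differences were 0.13, 0.03 and 0.13.

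Lower genes of that rule were led by control 1. Slc2a4, the insulin-responsive glucose carrier, held 146, 8.79 and 14.2 CPM in controls and 0.0368, 0 and 0.0218 CPM in water-loaded ducts. Each control exceeded each water-loaded library, and at day 4 the difference ran the other way (4.15). Foxp1, a transcription factor, held 212, 55.5 and 31.0 CPM against 5.39, 12.6 and 16.2 CPM, a difference of −3.12 that was −2.02 without both libraries. P3h2, which modifies collagen prolines, held 143, 97.3 and 65.9 CPM against 22.6, 19.4 and 33.1 CPM (−2.03, and −1.56 without both). Pxmp2, a peroxisomal membrane channel, and Eme2, of a DNA repair nuclease, went from −3.07 and −2.78 to −2.12 and −1.80 without both libraries, and Tns2, a tensin, and Prpf3, a splicing factor, from −3.36 and −3.60 to −1.57 and −1.61. At days 2 and 4 Foxp1 stood at 0.24 and −0.40 and P3h2 at 0.23 and 0.02.

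Cell cycle genes had no common direction at day 1 and a different pattern from later days. Of 29 tested, 12 were higher and 17 lower, with a median of −0.14 that was −0.68 without control 1 and 0.54 without control 3, whereas the medians were 1.79 at day 2 and 2.58 at day 4. The effect at day 2 exceeded that at day 1 in 27 of the 29 (93.1%; 48.9% of all genes), and 6 of them (20.7%; 4.64% of all) did so at an unadjusted p under 0.05. For day 4 these were 24 of 29 (82.8%; 50.5% of all genes) and 8 members (27.6%; 5.34% of all). Both comparisons with day 1 use the same day 1 libraries, and no member passed adjustment in edgeR's test.

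Cdk1, the kinase that drives entry into mitosis, was lower at day 1 and higher on both later days by its means. Its day 1 controls held 50.9, 41.3 and 52.6 CPM and its water-loaded libraries 13.8, 7.09 and 9.78 CPM, a log2 difference of −2.24 (SE 0.81) that ranged from −2.52 to −2.03 with 1 library left out and was −1.99 without both. At day 2 the means were 22.4 ± 23.6 CPM in controls and 48.4 ± 5.94 CPM in water-loaded ducts (SD, n = 4), and at day 4 they were 5.35 ± 4.09 and 27.4 ± 17.2 CPM (SD, n = 3). The effect was larger by 3.34 at day 2 and by 4.59 at day 4 than at day 1, with edgeR's unadjusted p of 0.00498 and 7.64e-04 and adjusted p of 0.275 and 0.260. Kif22, a chromosome motor, held 0.0553, 0.110 and 0.0657 CPM in day 1 controls and 19.8, 0.953 and 7.21 CPM in water-loaded ducts, and its log2 differences at days 2 and 4 were 4.04 and 3.83.

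Over the other lists, several medians changed without control 1 or water-loaded 2. Immediate-early genes, which respond to stimuli within minutes, were lower in 21 of 23 (91.3%, against 48.9% of all genes; median −1.06), 6 of them at an unadjusted p under 0.05 (26.1%, against 6.98%). The median was −0.45 without control 1, −0.63 without water-loaded 1 and −1.67 without water-loaded 2. Their sum was 34619, 16699 and 2997 CPM in controls and 2816, 13423 and 8613 CPM in water-loaded ducts, so the groups overlapped and the range was wide within each. Klf4, a factor of that list, held 1100, 103 and 24.0 CPM against 4.72, 4.02 and 26.3 CPM. Without both libraries 22 of 23 were lower (median −1.002), and control 3 lay near water-loaded 1 in their sum.

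Proteasome subunits were lower in 25 of 31 (median −0.43), but the median was −0.16 without control 1 and −0.13, with 20 of 31 lower, without both libraries, and 0.20 and 0.35 at days 2 and 4. Psmd13, a subunit of its regulatory particle, held 510, 276 and 261 CPM against 160, 161 and 151 CPM (log2 difference −1.15, SE 0.31), and 0.14 and 0.48 at the later days. Cytoplasmic ribosomal proteins were lower in 38 of 48 (median −0.28), and with 1 library left out the median ran from −0.48 without water-loaded 2 to 0.14 without control 1. Ribosome biogenesis genes were higher in 14 of 23 (median 0.44), and without both libraries in 17 of 23 (0.35), but the median was 0.22 without control 1 or water-loaded 1 and −0.16 without water-loaded 3. Mitochondrially encoded genes were higher in 10 of 11 (median 0.29), and in 11 of 11 without both libraries (0.68), but the median was 0.082 without control 2, 0.0064 without control 3 and −0.035 without water-loaded 2, and 0.90 without control 1. Mt-co1, a subunit of the oxidase that ends the respiratory chain, held 31489, 25976 and 24287 CPM against 39545, 51707 and 41197 CPM without overlap (0.70, SE 0.60).

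Ligands and inhibitors of the ErbB receptors, growth factor receptors that signal to MAP kinase, gave 3 lower members without overlap (15.8%, against 5.17% of all genes) and 1 higher (5.26%, against 5.71%). Of these Btc and Spry2 had a day 1 mean above 10 CPM, while Spry4, lower, stood at most at 3.21 CPM and Dusp4, higher, at most at 4.26 CPM. Btc, the ligand betacellulin, held 64.8, 64.0 and 42.7 CPM in controls and 23.4, 12.4 and 19.2 CPM in water-loaded ducts (log2 difference −1.64, SE 0.59, edgeR's adjusted p 0.238), beside −2.71 and −1.67 at days 2 and 4. Spry2, a feedback inhibitor of that pathway, held 74.7, 29.9 and 22.9 CPM against 9.93, 16.7 and 8.11 CPM (−1.87, SE 0.76), beside −1.39 and −0.75. Without control 1 the day 1 difference of Spry2 was −1.19. Without control 1 and water-loaded 2, Btc differed by −1.33 and Spry2 by −1.55, with edgeR's unadjusted p of 0.0839 and 0.0823. Over the list 13 of 19 were lower (median −0.55), and the median was −0.16 without control 3, −0.83 without water-loaded 1 and −1.13 without water-loaded 3. At an unadjusted p under 0.05 stood 3 lower members, Btc, Spry2 and Spry4 (15.8%, against 6.98% of all genes), and 2 higher ones, Etv5 and Dusp4 (10.5%, against 8.6%).

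Several lists of markers of other cells moved with the libraries that held them. Proximal tubule markers were higher in 17 of 17 (median 5.46), and the median was 0.00 without water-loaded 2. Fibroblast, pericyte and smooth muscle markers had a median of −2.75, which turned to 0.77 without control 1, and endothelial markers one of −1.62, which was −2.78 without water-loaded 1, −0.59 without control 1 and −0.03 without both. Loop of Henle and distal tubule markers were higher in 6 of 8, with a median of 1.36 (0.64 to 4.59 with 1 library left out, and 0.083 without both), and did not all peak in 1 library. Calb1, a calcium-binding protein of distal segments that made up most of their sum, held 389, 791 and 6408 CPM in controls and 2138, 12934 and 1574 CPM in water-loaded ducts, highest in water-loaded 2. Umod, the urine protein uromodulin, held 0.553, 1.74 and 2.14 CPM in controls and 249, 76.1 and 2.88 CPM in water-loaded ducts, highest in water-loaded 1. Krt19, a keratin, held at most 0.0329 CPM in controls and 22.9, 0.715 and 2.77 CPM in water-loaded ducts, also highest in water-loaded 1. Vim, the filament protein of mesenchymal cells, held 2503 CPM in control 1 and 0.715 to 56.6 CPM elsewhere. The part of such transcripts in the differences of other genes was not tested.

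**Figure D5:**
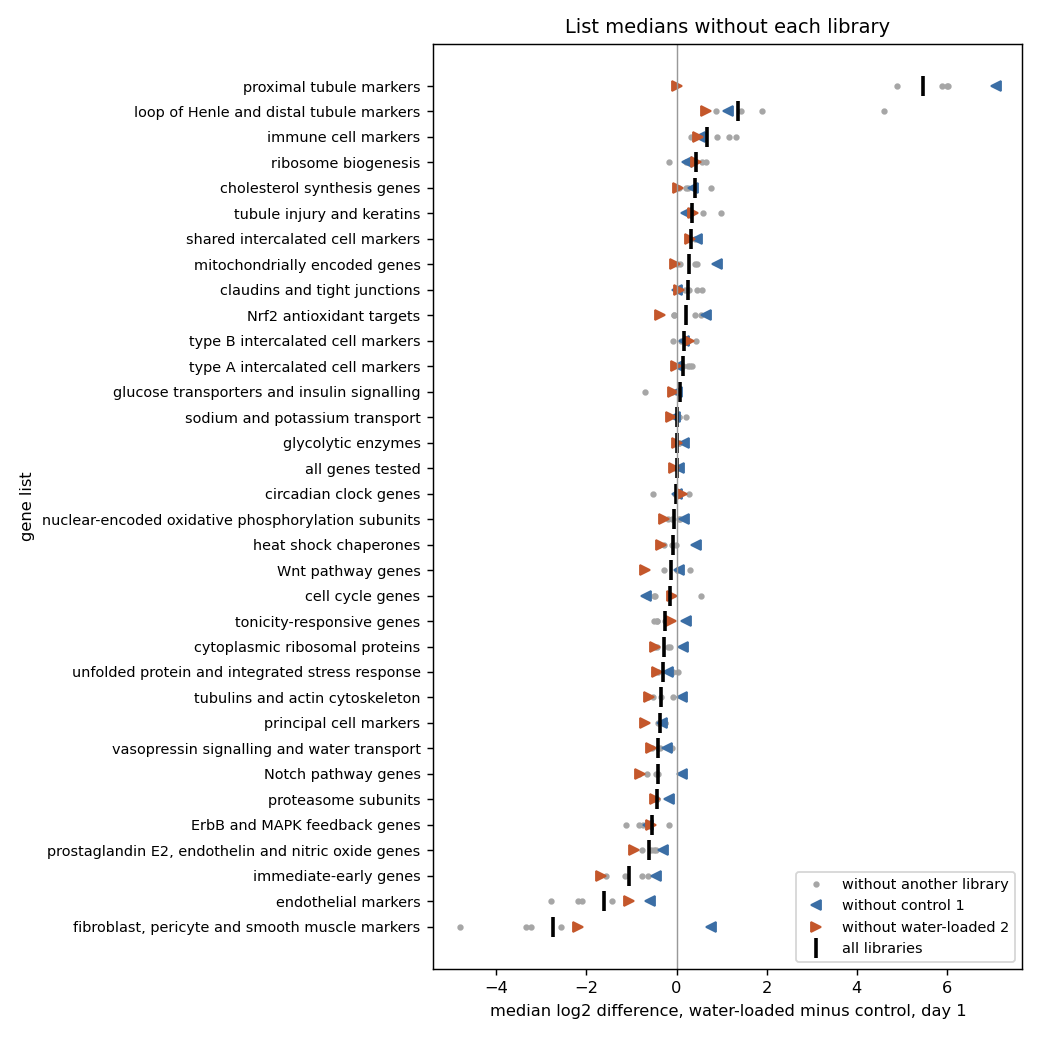
Median day 1 log2 difference of each gene list of at least 5 tested genes with all libraries (black bar), without control 1 (blue), without water-loaded 2 (orange) and without each other library (grey). Proximal tubule markers go from 5.46 to 0.00 without water-loaded 2, and fibroblast markers from −2.75 to 0.77 without control 1.

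Single genes whose value rested on 1 library were the extreme case. Of the 4 that moved most without control 1, Atoh8, a developmental factor, stood at 85.8 CPM there and at most at 0.0550 CPM in the other day 1 libraries. Of the 4 that moved most without water-loaded 2, Csf2rb, a cytokine receptor chain, stood at 95.6 CPM there and at most at 0.153 CPM elsewhere. Prodh2, an enzyme of hydroxyproline breakdown, held 80.9 CPM there, and its difference of 9.32 became −0.86 without it.

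Differences of effect between days were tested across all genes, and by edgeR's quasi-likelihood test 0 of 14472 (0%) passed for day 2 minus day 1 or day 4 minus day 1, while 1579 (10.9%) and 1416 (9.78%) had an unadjusted p under 0.05. DESeq2 called 518 (3.58%) and 533 (3.68%) genes for these differences, and limma-voom 5 (0.0345%) and 2 (0.0138%). The smallest p for day 2 minus day 1 belonged to Ankle1, Cyp4a2 and Plekha5, and for day 4 minus day 1 to Slc2a4, Pdlim2 and Eln. Ankle1, a nuclease, held 67.6 CPM in day 1 control 1 and at most 0.531 CPM in the others. Cyp4a2, a fatty acid hydroxylase, held 442 CPM in water-loaded 2 and at most 7.69 CPM in the others. For Aqp2 and Aqp3 the day 2 effect exceeded the day 1 effect by −0.23 and −0.75 and the day 4 effect by −0.82 and −0.95, with edgeR's adjusted p between 0.610 and 0.951, so no change of the aquaporin difference with time was detectable in that test.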

How the data were processed

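RNA of microdissected cortical collecting ducts was measured in 20 libraries of 6 groups (3 or 4 rats each), of which the 6 of day 1 are compared. Per the submitters' processing notes, the authors trimmed reads with Trimmomatic 0.32, aligned them to rn6 with STAR 2.4.0.1 and used SAMtools and HTSeq; strand setting and annotation are not given in the sources used. Their deposited table holds the authors' read counts per gene for 32545 genes. Its 5 summary lines, together 32.7 to 35.6% of the total at day 1, were dropped. Most of that was alignments that were not unique, 23.9 to 26.9% of the total. The authors' deposited FPKM table was used for levels per length.

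Counts were fitted with edgeR 4.0.16 in R 4.3.3 (filterByExpr, TMM, robust quasi-likelihood test, 1 mean per group, all 20 libraries, Benjamini-Hochberg over 14472 genes). Alternatives used DESeq2 1.42.0, limma 3.58.1 and libraries left out; the scripts were tested on simulated data. Named genes were 8 of the water pathway, the 10 per direction with the smallest p by the stricter rule, 8 per direction of at least 100 CPM without overlap, 3 per list and 4 per outlying library, and others were chosen after their values were seen. Members and the 35 lists were chosen with earlier results of these data known. Each library is labelled as a rat of its own. A few genes that the rules named are not reported here.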

Additional observations from a re-analysis of the deposited data

How the results depend on the processing

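Of 94 genes examined, 79 had a value from a mean of 10 CPM and 84 in the 6 day 1 libraries alone. Of the 94, 86 kept their direction under every alternative that gave them a value and 8 reversed under at least 1. The 94 leave out some genes named from the lists, and some of these reversed too. Lss went from −3.59 to 0.77 without control 2, and Myh11 from −6.34 to 0.98 without control 1. Tef went from 1.28 to −0.24 without control 1 and water-loaded 2. Of 35 list medians, 21 changed sign on leaving out 1 day 1 library. The number of genes called at day 1 was 0 in the fit reported, 1126 with DESeq2, 2 with limma-voom (Galnt10 among them) and 0 to 9 with 1 library left out: 9 without control 3, all higher, 1 without water-loaded 1 (Lpxn) and 1 without water-loaded 2 (Il34). Genes with an unadjusted p under 0.05 numbered 346 higher and 503 lower from a mean of 10 CPM, 205 and 226 in the 6 day 1 libraries alone, and 683 and 430 without control 1 and water-loaded 2. With 1 library left out the lower ones numbered 580 (without control 1) to 1225. For the effect at day 2 minus that at day 1, DESeq2, an alternative added after the data had been seen, called 518 genes, limma-voom 5 and fits without 1 library 0 to 8. At day 4 minus day 1 these were 533, 2 and 0 to 3, the most of the latter without control 3 each time. The causes were not tested.

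Without control 1 and water-loaded 2, the log2 differences that reversed among the 94 genes were −0.11 for Scnn1b, −0.95 for Calb1, −3.40 for Spns3 and 0.64 for Eln. Scnn1g, at 0.00, turned to 0.011 with DESeq2 size factors, 0.014 in the 6 libraries alone, 0.011 with DESeq2 and 0.062 on total counts. With 1 library left out, the values ranged over −0.79 to 0.21 for Aqp4, −0.12 to 0.22 for Scnn1b, −0.16 to 0.093 for Scnn1g, −0.45 to 3.23 for Calb1, −1.56 to 13.42 for Pon3, −0.86 to 11.29 for Prodh2, −2.86 to 10.47 for Spns3 and −10.81 to 0.14 for Eln.

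The sample titles do not say whether same-numbered rats were paired. Deviations of same-numbered rats correlated at −0.05, −0.06 and 0.06, and not every library correlated best with its own number. With 3 libraries per group these values cannot settle whether the rats were paired. A fit with the replicate number as a block called 0 genes and left 1507 with an unadjusted p under 0.05, against 2254 without the block. Depth was 44480814 to 60678591 reads on genes at day 1, and the floor of 3 counts corresponds to 0.0493 to 0.0827 CPM.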
